A study of Mus musculus with 6 samples.

Results

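The 10 neuronal immediate early genes Fos, Fosb, Junb, Arc, Egr1, Egr2, Egr3, Egr4, Nr4a1 and Npas4 were read by gene symbol from a hippocampal RNA-seq table of 54532 genes. All 10 were in the table once, and all 10 were among the 20952 genes that reached a mean FPKM of 0.1 and were tested (FPKM, reads scaled to the length of the gene and the depth of the library). The study compared 3 wild-type (WT) mice with 3 mice called transgenic (TG), which carry G82R and L85P, the epilepsy-associated substitutions of the glial glutamate transporter GLT-1, encoded by Slc1a2. Per the study's methods, both substitutions were placed in exon 3 of the mouse gene by CRISPR/Cas9 on the C57BL/6N background, so the TG line is a knock-in in which every cell type that expresses Slc1a2 carries the changed residues from the gene's own promoter, and the WT mice were littermates of the same strain. Neither group was treated with an agent in the labels, and the age of the mice at sampling is not given in the sources used here. The paper put TG mice and WT littermates through behavioural tests, among them fear conditioning with electric shock. The paper reports that no spontaneous seizures were seen in the TG mice. It does not state whether the sequenced mice had been tested, or the time from testing or handling to sampling.

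Immediate early genes are transcribed within minutes of synaptic activity and calcium entry, without new protein synthesis, because their promoters are held ready by factors already present in the cell, chiefly CREB at cAMP response elements and SRF with its ternary complex partners at CArG boxes. Most of them encode transcription factors that switch on later genes, and a few, such as Arc, encode proteins that act at the synapse itself. Their transcripts are short-lived, and in the hippocampus they are widely used as markers of recently active neurons and of seizures.

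Values are given in the order of the labels, mice 1, 2 and 3 of each group. The reads on genes ranged from 16081281 to 18751057 per library, and 3 reads on a gene of 1 kb corresponded to an FPKM of 0.160 to 0.190. The labelled tissue was checked with marker genes: C1ql2 of dentate granule cells ranged from 48.0 to 66.8 FPKM and Mpped1 of CA pyramidal cells from 58.7 to 67.2 FPKM over the 6 libraries. Slc1a2 RNA averaged 193 FPKM in WT and 215 FPKM in TG mice, a log2 difference of 0.16 (SE 0.0856, limma adjusted p = 0.789). A missense substitution leaves the gene in place, so this RNA level is no check of the genotype. It is also no measure of the protein, since the paper's hippocampal Western blots found GLT-1 nearly abolished in TG mice. The paper does not state the zygosity of the sequenced mice. Choroid plexus transcripts set the libraries apart, with 13 marker genes summing to 83.2 to 112 FPKM in the 3 WT libraries, but to 1339, 4187 and 92.8 FPKM in the TG mice. The fold changes of the 10 genes without TG1 and without TG2 are given after their values. In bulk tissue, fewer cells of a type and less RNA per cell cannot be told apart.

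Promoter sequences are shown because the 10 genes are known for a shared route of induction. Sequences of 250 bases upstream of the RefSeq start (GRCm38.p6) were read for 7 of the 10 genes. Arc, Egr1 and Egr3 were not searched, so the site counts do not cover them. The 7 genes read were Fos, Fosb, Junb, Egr2, Egr4, Nr4a1 and Npas4. Of these, 4 are printed: Fos as the best-known member, Nr4a1 with the most matches, Npas4, whose values differed in direction from the others, and Egr2, which had no match in the window read. Where a gene has several RefSeq starts, only the one nearest to the start in the deposited table was read, as for Egr2, which has 5 windows. Nr4a1 has 1 window, and its RefSeq start lies 12577 bases inside the gene. Capitals mark the CREB core site TGACG, written as its reverse complement CGTCA where it lies on the other strand, and, in Nr4a1, the Egr site GCGNGGGCG on the other strand. All 4 are written 5′ to 3′ on the strand of the gene and end at the base before the start, covering chr12:85473640-85473889 (plus strand) for Fos, chr15:101266596-101266845 (plus strand) for Nr4a1, chr19:4989972-4990221 (minus strand) for Npas4 and chr10:67535249-67535498 (plus strand) for Egr2. In a GENCODE annotation of GRCm38, Npas4 starts farther upstream, so its window lies inside that gene model.
Fos: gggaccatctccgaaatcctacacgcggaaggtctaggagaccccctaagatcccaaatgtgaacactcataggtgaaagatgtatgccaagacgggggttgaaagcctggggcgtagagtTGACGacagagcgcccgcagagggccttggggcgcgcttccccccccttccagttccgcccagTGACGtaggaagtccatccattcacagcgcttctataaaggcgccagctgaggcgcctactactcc
Nr4a1: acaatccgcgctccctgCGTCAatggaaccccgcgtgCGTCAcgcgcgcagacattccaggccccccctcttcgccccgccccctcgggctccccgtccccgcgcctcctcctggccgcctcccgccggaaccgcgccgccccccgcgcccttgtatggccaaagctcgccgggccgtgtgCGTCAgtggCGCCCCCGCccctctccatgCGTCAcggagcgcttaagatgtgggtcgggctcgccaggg
Npas4: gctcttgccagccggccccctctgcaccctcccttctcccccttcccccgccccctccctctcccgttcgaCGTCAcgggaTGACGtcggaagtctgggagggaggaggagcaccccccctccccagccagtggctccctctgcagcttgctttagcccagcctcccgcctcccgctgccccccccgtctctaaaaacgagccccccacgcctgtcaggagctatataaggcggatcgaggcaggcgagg
Egr2: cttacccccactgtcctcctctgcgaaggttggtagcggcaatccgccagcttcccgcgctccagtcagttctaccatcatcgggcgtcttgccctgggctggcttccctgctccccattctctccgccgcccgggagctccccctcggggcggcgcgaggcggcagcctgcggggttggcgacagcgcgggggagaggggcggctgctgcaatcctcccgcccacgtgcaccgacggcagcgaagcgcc

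The core site TGACG, searched on both strands, was present in 6 of the 7 upstream windows and in 17.8% of 32851 promoter windows of the same length. Fos held 2 copies, 129 and 66 bases before the start, and Npas4 held 2, at 179 and 169 bases. Nr4a1 held 4, at 233, 213, 69 and 40 bases before its RefSeq start. The full palindrome TGACGTCA was in 0 of 7 windows (1.55% of all) and the CArG box in 0 of 7 (1.47% of all), which says only that these letters were not in these 250 bases. The Egr site was in 2 of 7 (Fosb and Nr4a1) and in 4.7% of all windows. These matches describe the letters and are not measurements of binding.

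No immediate early gene differed between TG and WT mice after adjustment over all 20952 genes, in limma on log2(FPKM + 0.1) with Benjamini-Hochberg adjustment (threshold 0.05). The same fit called 1 gene higher and 1 gene lower in TG mice, which is 0.00477% of the genes tested in each direction and 0.00955% in either, so a count of 0 of 10 is near the background. At an unadjusted p under 0.05, 1 of the 10 (Arc) was higher and 0 were lower, against 3.13% and 2.78% of all genes. The fitted difference was above 0 for 9 of the 10 genes and below 0 for Npas4, where 49.6% of all genes lay above 0. The median log2 fold change of the 10 genes was 0.26, beside a median of -0.0020 over all genes tested. No gene of the 10 had groups that did not overlap, where 6.35% of all genes were higher and 5.71% lower in every TG library than in every WT library.

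**Figure D1:**
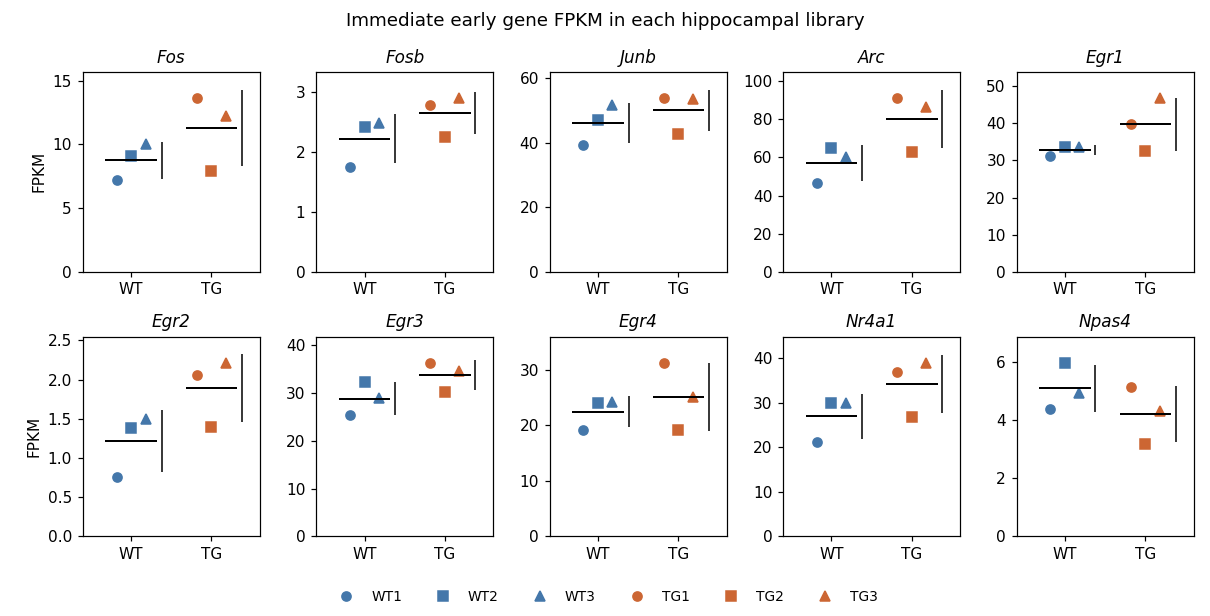
FPKM of each immediate early gene in the 6 hippocampal libraries, 1 panel per gene, with a point for each library and the mean and SD (n = 3) of each group. In 9 panels TG1 and TG3 lie above the other 4 libraries, and in Npas4 they do not.

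Fos, the classic activity marker that pairs with Jun proteins to form the AP-1 transcription factor, lies on chromosome 12 (GRCm38, 85473890 to 85477273, plus strand). Its FPKM was 7.20, 9.05 and 10.1 in WT mice against 13.6, 7.90 and 12.2 in TG mice. TG1 and TG3 were above every WT library, and TG2 lay inside the WT range. The means were 8.77 ± 1.45 in WT and 11.3 ± 3.00 in TG mice (SD, n = 3), a log2 fold change of 0.33 (SE 0.215, 95% interval -0.17 to 0.84) with an adjusted p of 0.789 in limma.

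Fosb, the Fos family member whose truncated product accumulates with repeated activity, lies on chromosome 7 (19302696 to 19310051, minus strand). It was measured at 1.76, 2.43 and 2.49 FPKM in WT mice against 2.79, 2.26 and 2.91 FPKM in TG mice. As for Fos, only TG2 fell among the WT values, and WT1 was the lowest library. The log2 fold change was 0.25 (SE 0.171, 95% interval -0.15 to 0.65, limma adjusted p = 0.789). Junb, a Jun protein that restrains as well as forms AP-1, lies on chromosome 8 (84974484 to 84978718, minus strand). Its level was 39.3, 47.1 and 51.8 FPKM in WT mice against 53.9, 42.7 and 53.6 FPKM in TG mice. The top WT library and the TG libraries TG1 and TG3 differed little, and the log2 fold change of Junb was 0.12 (SE 0.131, 95% interval -0.19 to 0.43, limma adjusted p = 0.826). Exons of Junb overlap Prdx2 on the opposite strand, and the strand setting of the counting is not given in the sources used here, so the level of Junb is less certain than the others.

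The Egr genes encode zinc finger factors that bind GC-rich sites. Egr1 (zif268), long used to map activity during learning, lies on chromosome 18 (34859823 to 34864984, plus strand). Its FPKM was 31.2, 33.5 and 33.5 in WT mice against 39.8, 32.5 and 46.9 in TG mice. The WT libraries were close together, with a mean of 32.7 ± 1.35 (SD, n = 3), and the TG libraries were spread, with a mean of 39.7 ± 7.19 (SD, n = 3). The log2 fold change was 0.26 (SE 0.129, 95% interval -0.04 to 0.56, limma adjusted p = 0.788).

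Egr2, known for its role in myelinating Schwann cells and induced in neurons by strong activity, lies on chromosome 10 (67535475 to 67542188, plus strand). It was the least abundant of the 10, with 0.764, 1.38 and 1.49 FPKM in WT mice against 2.06, 1.40 and 2.22 FPKM in TG mice, from 48 to 136 reads per library. TG2 lay between WT2 and WT3, and the other TG libraries were above all WT libraries. Egr2 had the largest fitted difference among the 10 genes, a log2 fold change of 0.62, and also the widest interval (SE 0.280, 95% interval -0.03 to 1.28, limma adjusted p = 0.786).

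Egr3, a related factor with a part in synaptic plasticity and memory, lies on chromosome 14 (70077203 to 70082614, plus strand). Its FPKM was 25.4, 32.2 and 28.9 in WT mice against 36.4, 30.3 and 34.6 in TG mice. TG1 and TG3 were above every WT library, TG2 was below WT2, and the log2 fold change was 0.23 (SE 0.109, 95% interval -0.03 to 0.48, limma adjusted p = 0.786). Egr4, a further member of the family, lies on chromosome 6 (85511121 to 85513589, minus strand). Its FPKM was 19.2, 24.1 and 24.2 in WT mice against 31.3, 19.1 and 25.1 in TG mice. TG2 was the lowest of the 6 libraries and TG1 the highest, and the log2 fold change of Egr4 was 0.14 (SE 0.181, 95% interval -0.28 to 0.57, limma adjusted p = 0.854). Without TG1 it was -0.030, the only change of direction among the 10 genes over all alternatives.

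Nr4a1 (Nur77), an orphan nuclear receptor, lies on chromosome 15 (101254269 to 101274795, plus strand). Its FPKM was 21.1, 29.9 and 29.8 in WT mice against 37.0, 26.9 and 38.9 in TG mice. Again TG1 and TG3 were the top libraries and TG2 lay inside the WT range, and the log2 fold change was 0.34 (SE 0.183, 95% interval -0.09 to 0.77, limma adjusted p = 0.789). Npas4, a neuron-specific factor that responds to calcium entry and shapes inhibitory synapses, lies on chromosome 19 (4984355 to 4989971, minus strand). Its FPKM was 4.39, 5.99 and 4.95 in WT mice against 5.15, 3.20 and 4.31 in TG mice, from 188 to 317 reads per library. WT2 was the highest library and TG2 the lowest, and the groups overlapped. The means of Npas4 were 5.11 ± 0.811 in WT and 4.22 ± 0.977 in TG mice (SD, n = 3), a log2 fold change of -0.29 (SE 0.189, 95% interval -0.73 to 0.16, limma adjusted p = 0.789). Without TG2, the library richest in choroid plexus transcripts, the log2 fold change of Npas4 was -0.10, without TG1 it was -0.44, and with the choroid plexus level as a covariate it was -0.097.

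Arc encodes a protein that is made at active synapses and promotes removal of AMPA receptors, and it was the most abundant of the 10 genes (chromosome 15, 74669083 to 74672570, minus strand). Its FPKM was 46.7, 64.9 and 60.3 in WT mice against 91.2, 62.9 and 86.7 in TG mice. TG1 and TG3 stood above all WT libraries, and TG2 lay between WT3 and WT2. The means of Arc were 57.3 ± 9.48 in WT and 80.3 ± 15.2 in TG mice (SD, n = 3), a log2 fold change of 0.48 (SE 0.174, 95% interval 0.07 to 0.89). Arc passed an unadjusted p of 0.05, and its adjusted p in limma was 0.786. Apart from a fit of TG3 alone, the smallest adjusted p of any of the 10 genes over the settings tried was 0.636 (limma, without WT2). A two-sided exact permutation test of 3 against 3 libraries cannot give a p below 0.1, and it gave 0.2 for Arc, Egr2 and Egr3 and 0.3 to 0.5 for the other 7 genes.

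**Figure D2:**
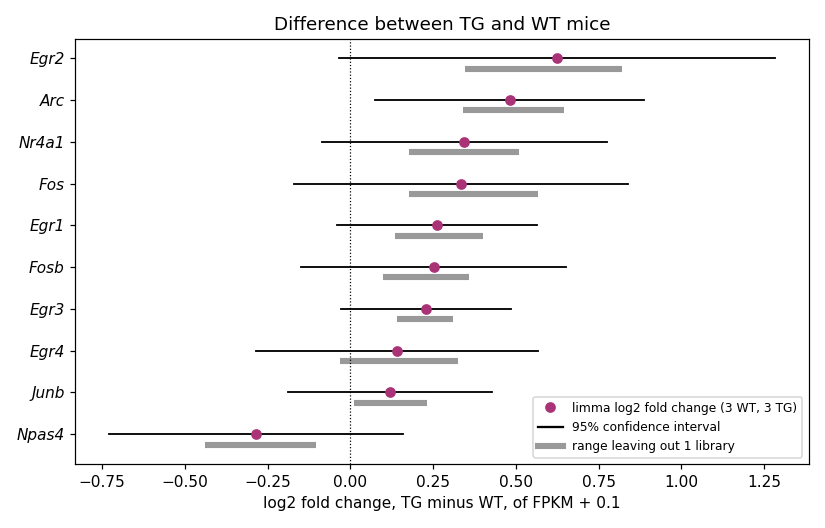
log2 fold change (TG minus WT, of FPKM + 0.1) of each gene in limma with its 95% interval (n = 3 per group), and, as a grey bar, the range when 1 library at a time was left out. The intervals of 9 genes include 0 and that of Arc, from 0.07 to 0.89, does not.

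The fitted values moved with the library left out. The values without TG1 and TG2, the libraries rich in choroid plexus transcripts, are given first. Without TG1, the log2 fold change was 0.18 for Fos, 0.21 for Fosb, 0.06 for Junb, 0.38 for Arc, 0.25 for Egr1, 0.55 for Egr2, 0.17 for Egr3 and 0.28 for Nr4a1. Without TG2, these values were 0.57, 0.36, 0.23, 0.65, 0.40, 0.82, 0.30 and 0.51 in the same order, and Egr4 was at 0.32. Each was thus higher without TG2 than without TG1.

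The count at an unadjusted p under 0.05 depended on the library left out. Without TG2, 6 of the 10 genes passed it as higher in TG mice (Arc, Egr1, Egr2, Egr3, Fos and Nr4a1), against 2.16% of all genes. Without WT2, Arc and Egr3 passed, against 2.93% of all genes. Without WT1, 0 passed (3.57% of all genes), and 0 passed without WT3 (2.14%), TG1 (2.52%) or TG3 (2.82%), counts near the background. With all 6 libraries and another scaling or model, the genes that passed were Arc, Egr1 and Egr3 under quantile scaling (2.87% of all genes), Arc, Egr1, Egr2 and Egr3 when libraries were scaled to the neuron markers (2.72%), Arc, Egr1, Egr2, Egr3 and Nr4a1 in voom on recovered reads (3.88%), and none in limma without the mean-variance trend (2.95%). With TG3 alone against the WT libraries, a comparison added after the data were seen that leaves out both libraries with choroid plexus transcripts, 1 passed (Egr1, 2.1% of all genes), and the median log2 fold change of the 10 genes was 0.44.

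TG1 and TG3 were above the other 4 libraries in 9 of the 10 genes, Npas4 being the exception, whereas this order held for 7.45% of all genes tested. WT1 was the lowest library in 8 of the 10, against 11.1% of all genes, and TG2 was the lowest for Egr4 and Npas4. TG2 lay within the WT range in 8 of the 10 genes, against 55.4% of all genes. The median deviation of the 10 genes from their WT means on the log2 scale was -0.24, 0.15 and 0.14 in the WT mice, and 0.41, 0.0015 and 0.44 in the TG mice. TG2 thus stood close to the WT mean while TG1 and TG3 were above it, and WT1 was below. The members were picked as a family known to move together, and the order of the libraries was noticed in these values, so these shares are descriptions.

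**Figure D3:**
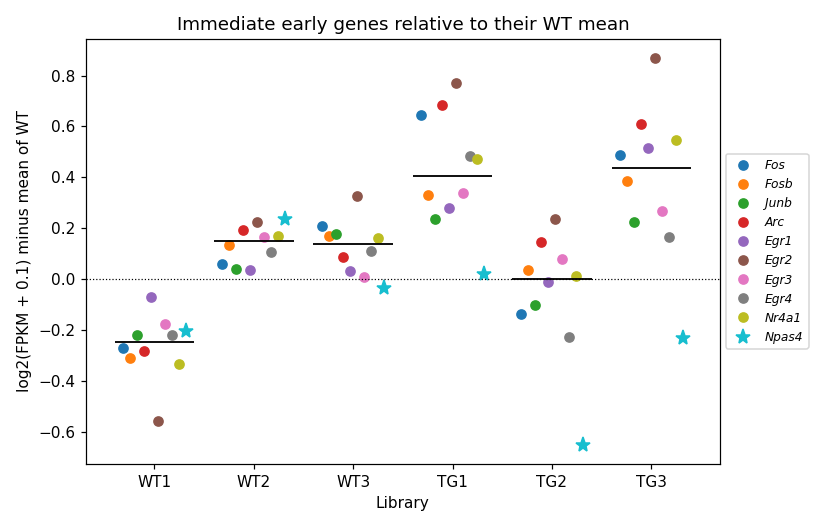
Deviation of each immediate early gene from its WT mean (log2 of FPKM + 0.1) in each library, 1 point per gene with a star for Npas4, and a bar at the median of the 10 genes. The median lies at -0.24 in WT1, near 0 in TG2, and at 0.41 and 0.44 in TG1 and TG3.

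The spread between mice was wide compared with counting error. The within-group SD on the log2 scale ranged from 0.154 for Egr3 to 0.418 for Egr2, with a median of 0.277, whereas the 13325 genes at or above a mean FPKM of 1 had a median of 0.140. Counting error was 0.0243 for Arc and 0.159 for Egr2, the lowest and highest of the 10, and was below the SD for every gene. The highest library exceeded the lowest by 1.37-fold for Junb, 1.95-fold for Arc and 2.90-fold for Egr2. In mean FPKM, a scale per gene length, the order was Arc (68.8), Junb (48.1), Egr1 (36.2), Egr3 (31.3), Nr4a1 (30.6), Egr4 (23.8), Fos (10.02), Npas4 (4.67), Fosb (2.44) and Egr2 (1.55). Neighbours in this order had overlapping ranges over the 6 libraries, except Egr4 over Fos, Fos over Npas4 and Npas4 over Fosb. Within a library each gene was above the next in all 6 libraries, apart from Egr3 over Nr4a1, which held in 3.

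Npas4 was set against the other 9 genes within each library, a comparison chosen after its values were seen. As a percent of the Fos FPKM, Npas4 was 61.0, 66.1 and 49.3 in WT mice against 37.7, 40.5 and 35.2 in TG mice. As a percent of Arc it was 9.40, 9.23 and 8.21 in WT and 5.64, 5.08 and 4.97 in TG libraries, and as a percent of Egr4 it was 22.9, 24.9 and 20.5 in WT and 16.4, 16.7 and 17.2 in TG libraries. In these ratios TG2 no longer lay with the WT libraries, and the groups did not overlap. The same held for all 9 ratios, which share Npas4 and are not independent of each other, and 8.85% of all 20951 other genes had a ratio with Npas4 that was lower in every TG library. The narrowest gap was with Junb, where the lowest WT library was at 9.57% and the highest TG library at 9.55%. The log2 difference of the ratio ranged from -0.41 against Junb to -0.91 against Egr2. With 3 libraries a group, the exact permutation test of such a ratio cannot go below 0.1.

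**Figure D4:**
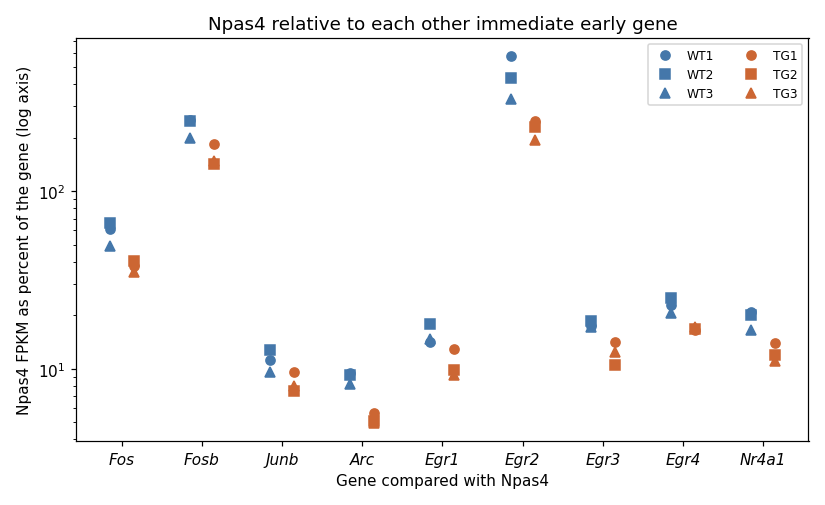
Npas4 as a percent of the FPKM of each of the other 9 genes in the 6 libraries, on a log axis, with 1 point per library coloured by group. Every TG point lies below every WT point for all 9 genes, by the least for Junb (9.55% against 9.57%).

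Ratios among the other 9 immediate early genes were computed as well, after the values were seen. Of the 36 pairs, 8 had groups that did not overlap, and each of these held Arc or Egr2 as the gene that was higher in TG mice relative to its partner. The partners were Fosb, Junb, Egr4 and Nr4a1 for both Arc and Egr2. Over the whole table, 24.1% of genes had a ratio of Arc to the gene that was higher in every TG library than in every WT library, and 22.3% had such a ratio with Egr2. The share over pairs of all genes was not computed, so the 8 of 36 has no background here and is only a description. No ratio between Fos, Egr1 or Egr3 and another of the 9 genes separated the groups, and the shares of all genes for these ratios were not computed.

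The related genes of the pathway were read from lists of their roles. Of 19 other rapidly induced transcription factors, 3 were higher and 0 lower at an unadjusted p under 0.05 (3.13% and 2.78% of all genes), 0 passed adjustment (smallest limma adjusted p = 0.786), and the median log2 fold change was 0.19. Fosl2, an AP-1 partner related to Fos, was at 6.34, 6.54 and 6.30 FPKM in WT mice against 9.12, 7.65 and 8.50 FPKM in TG mice. All 3 TG libraries were above all WT libraries, with a log2 fold change for Fosl2 of 0.39 (SE 0.0867, adjusted p = 0.786 in limma). The clock gene Per1 (log2 fold change 0.29) and the nuclear receptor Nr4a2 (0.29) also passed the unadjusted threshold, and had groups that did not overlap, so 3 of the 19 genes were higher in every TG library (6.35% of all genes). Jun, the most abundant of the list, averaged 43.4 ± 1.21 FPKM in WT and 43.3 ± 4.61 FPKM in TG mice (SD, n = 3).

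Of 19 activity-regulated effector genes, whose products act at synapses, in secretion or in signalling, 1 was higher and 0 lower by an unadjusted p under 0.05. The shares over all genes were 3.13% and 2.78%. The median log2 fold change of the effectors was 0.09 and 0 passed adjustment. The kinase gene Sgk1 was at 20.6, 28.3 and 29.1 FPKM in WT mice against 30.1, 34.2 and 32.8 FPKM in TG mice (log2 fold change 0.33, limma adjusted p = 0.786). Its groups did not overlap, and TG2 was its highest library. Homer1, a postsynaptic scaffold gene, averaged 8.71 ± 0.517 FPKM in WT and 9.77 ± 0.488 FPKM in TG mice, and Tiparp had a log2 fold change of 0.22. The neuropeptide precursor gene Vgf, the most abundant effector, averaged 83.8 ± 11.3 FPKM in WT and 92.0 ± 17.3 FPKM in TG mice (SD, n = 3). WT1 was the lowest library in 14 of these 19 genes, against 11.1% of all genes. TG1 and TG3 were the top libraries in 2 of the 19, against 7.45% of all genes.

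Among 14 feedback inhibitors of the pathway, 1 was higher and 0 were lower at an unadjusted p under 0.05 (3.13% and 2.78% of all genes). The median log2 fold change was 0.06 and 0 passed adjustment. Sik1, a kinase that switches off CREB coactivators, was at 3.32, 4.50 and 3.64 FPKM in WT mice against 5.39, 4.72 and 4.92 FPKM in TG mice (log2 fold change 0.39, limma adjusted p = 0.786). Its groups did not overlap. The Ras pathway inhibitor Spry4 (log2 fold change 0.23) and the Egr corepressor Nab1 (0.12) came next by p, and Dusp6, a dual-specificity phosphatase gene and the most abundant of the list, averaged 19.7 ± 2.01 FPKM in WT and 20.9 ± 2.66 FPKM in TG mice (SD, n = 3).

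Of 21 upstream regulators, 1 was higher and 0 lower by an unadjusted p under 0.05 (3.13% and 2.78% of all genes). Their median log2 fold change was 0.08 and 0 passed adjustment. Elk4, a ternary complex partner of SRF, was at 4.27, 4.32 and 4.04 FPKM in WT mice against 5.05, 5.02 and 4.82 FPKM in TG mice (log2 fold change 0.23, limma adjusted p = 0.786). Its groups did not overlap. Srf itself averaged 20.7 ± 1.50 FPKM in WT and 23.1 ± 1.64 FPKM in TG mice (SD, n = 3), and Elk1, another such partner, had a log2 fold change of -0.14. WT1 was the lowest library in 0 of the 21 regulators. Set against the 3.13% of all genes that were higher, the 1 gene each among the effectors, inhibitors and regulators that passed the unadjusted threshold is near the background. Every TG library was above every WT library for 2 of 19 effectors (Sgk1 and Tiparp), against 6.35% of all genes. The same held for 3 of 14 inhibitors (Sik1, Spry4 and Nab1) and 1 of 21 regulators (Elk4). The order with TG1 and TG3 on top was not confined to the immediate early genes. It held for 7 of the 19 other rapid transcription factors, 5 of the 14 inhibitors and 3 of the 21 regulators, against 7.45% of all genes. WT1 was lowest in 7 of those transcription factors and 4 of the inhibitors, against 11.1% of all genes.

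**Figure D5:**
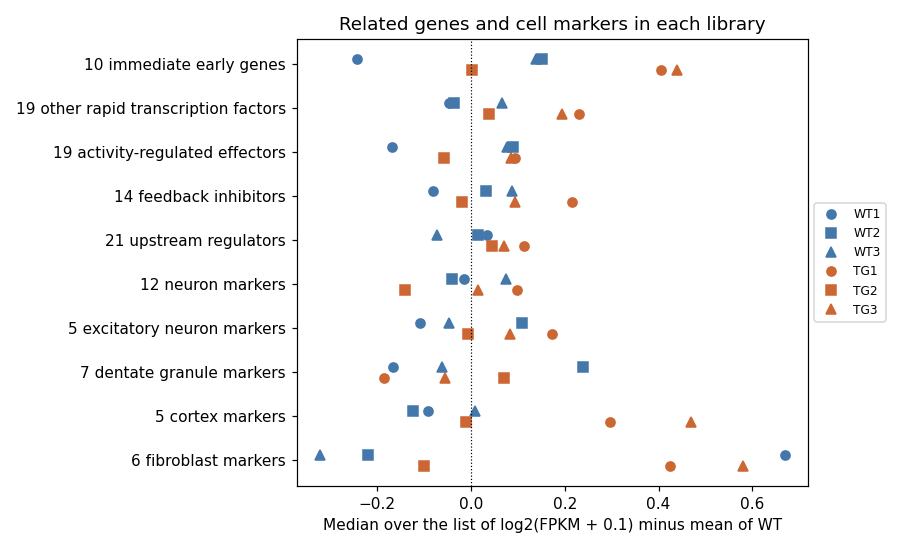
Median deviation from the WT mean (log2 of FPKM + 0.1) in each library for the 10 immediate early genes, the related pathway lists and marker lists of the cell types. TG1 and TG3 are highest for the immediate early genes, at 0.41 and 0.44, and the 12 pan-neuronal markers have a median log2 fold change of -0.01.

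Markers of the neurons that express these genes were set beside them. The 12 pan-neuronal markers summed to 1236 to 1344 FPKM in WT and 1181 to 1332 FPKM in TG libraries, with a median log2 fold change of -0.01 and 0 at an unadjusted p under 0.05 in either direction. The 5 excitatory neuron markers had a median of 0.09, the 8 CA pyramidal markers 0.02, the 6 interneuron markers -0.0012 and the 7 dentate granule markers -0.09, of which 2 were lower at an unadjusted p under 0.05. Of 6 markers of cortical layers, 5 were tested, and their median deviation was -0.09, -0.12 and 0.01 in WT mice against 0.30, -0.01 and 0.47 in TG mice. TG1 and TG3 had the highest medians, as for the immediate early genes, and the other 4 libraries came in another order. Of the 5 markers, 2 (Rspo1 and Tshz2) had TG1 and TG3 on top, and 3 (Rorb, Fezf2 and Lamp5) did not. Their summed level was 28.7 to 31.5 FPKM in WT and 26.9 to 35.3 FPKM in TG libraries, and none was at 0. Rspo1 and Lamp5 were singled out after their values were seen, as the marker with the largest difference and the only one with a log2 fold change below 0. Rspo1 was at 0.391, 0.415 and 0.606 FPKM in WT and 1.01, 0.604 and 1.23 FPKM in TG libraries, and Lamp5 was at 11.5, 12.2 and 14.5 FPKM in WT and 10.8, 10.7 and 14.3 FPKM in TG libraries. The part of cortical tissue in the immediate early gene values was not tested. The 6 fibroblast markers deviated by 0.67 in WT1, 0.42 in TG1 and 0.58 in TG3, and by -0.22, -0.32 and -0.10 in WT2, WT3 and TG2, and their part was not tested either. The choroid plexus transcripts followed another order, highest in TG2, where the immediate early genes lay near the WT mean. With their mean log2 level as a covariate in limma, the median log2 fold change of the 10 genes was 0.50 and 5 genes passed an unadjusted p under 0.05 (Arc, Egr1, Egr2, Fos and Nr4a1), against 1.6% of all genes. That level was high only in TG1 and TG2, so this fit cannot fully separate it from genotype.

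Among 13315 genes outside the family whose mean FPKM reached 1, the 5 nearest to its mean profile over the 6 libraries were Flt3, Pou3f1, Kcnab3, B330016D10Rik and Mrpl48-ps, at root mean square distances of 0.0610, 0.0820, 0.0844, 0.0844 and 0.0882 on the log2 scale. Flt3, a receptor tyrosine kinase gene, was at 0.955, 1.25 and 1.18 FPKM in WT mice against 1.42, 1.10 and 1.55 FPKM in TG mice. Pou3f1, a POU transcription factor gene that is also one of the CA pyramidal markers, was at 21.4, 24.8 and 27.5 FPKM in WT mice against 33.0, 23.1 and 28.7 FPKM in TG mice. Kcnab3 encodes a potassium channel subunit, and the remaining pair are annotated as pseudogenes. Of the 10 genes themselves, Fosb (0.0614) and Nr4a1 (0.0683) lay nearest to the mean profile that they are part of, and Egr2 (0.246) and Npas4 (0.287) farthest from it.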

How the data were processed

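Hippocampal RNA-seq libraries of 3 WT and 3 TG mice were analysed. The authors counted reads per gene with HTSeq and deposited FPKM, with 1 column per library, on GRCm38 (mm10) per the submitters' processing notes. The aligner and strand setting are not given in the sources used here, and the labels and the methods name different extraction and library kits. FPKM times gene length gave whole reads for 100% of values (tolerance 0.05 reads), with 16081281 to 18751057 reads on genes. These reads served only for depth, counting error (which covers counting only) and a limma-voom alternative.

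Of 54532 genes, the 20952 that reached a mean FPKM of 0.1 were fitted with limma 3.58.1 (R 4.3.3; lmFit, eBayes with trend) on log2(FPKM + 0.1), which understates changes of low genes, without covariate or block. Benjamini-Hochberg adjustment ran over all genes, at a threshold of 0.05. The fit was tested on simulated data. The labels give separate mice and no batch, so p-values measure the spread between these mice. The genes and lists were chosen with earlier results of these data known. Named were the 10 genes, in each related list the 3 genes of smallest p plus the gene of highest level, and the 5 nearest profiles; of the marker lists, those that bear on these genes. A gene that this rule names is not reported here. The table's coordinates and those of a GENCODE annotation of GRCm38 had the same start and end for 9 of the 10 genes, and Npas4, on the minus strand, begins at 4990316 in the annotation, so its printed window lies upstream of the start in the table and in RefSeq but inside the gene as GENCODE gives it. None of the 10 shared a stretch of 50 bases with another gene. Promoter windows came from RefSeq. Alternatives were pseudocounts of 0.01 and 1, a minimum mean FPKM of 1 or none, quantile and neuron marker scaling, no trend, voom, a choroid plexus covariate, a replicate block and leaving out libraries. Python 3.11.15 was used for summaries.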

Additional observations from a re-analysis of the deposited data

How the results depend on the processing

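Of 17 alternatives, 1 was added after the data were seen (TG3 alone), and its p-values are not read because it has 1 TG library. None of the 10 genes passed the adjusted threshold in limma under the others. Over all 17, 169 of 170 log2 fold changes kept their direction. The exception was Egr4 without TG1, at -0.030, within a range of -0.030 to 0.32 over the libraries left out. The median of the 10 genes, 0.26, became 0.50 with the choroid plexus covariate and ranged from 0.16 to 0.38 when 1 library was left out. Genes called over the whole table, 1 higher and 1 lower, became 0 and 0 under pseudocounts of 0.01 and 1, no filter, neuron marker scaling, voom and the choroid plexus covariate. They became 0 higher and 1 lower at a minimum mean FPKM of 1, and 6 and 3 without the trend. Leaving out 1 library gave 0 to 6 higher (6 without TG1) and 0 lower. The causes were not tested.

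The labels give same-numbered libraries no link beyond the number. Their deviations from the group means correlated at 0.013, 0.043 and 0.0031, against -0.027 to 0.016 for libraries of different numbers. Not every library correlated best with its own number. With 3 libraries a group, such correlations cannot settle whether same-numbered libraries were handled together. The replicate block gave 0 genes higher and 0 lower after adjustment, 634 higher and 610 lower at an unadjusted p under 0.05, and 0 of the 10.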
